A study of Mus musculus with 4 samples.

Results

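The 4 arrays of this series carry a replicate number in their titles, and the comparison described here sets the arrays numbered 2 against those numbered 1. Each number holds 2 arrays, 1 of the WT genotype and 1 of the genotype labelled Hif1a-/-, so that all 4 of the 4 arrays enter. The study profiled RNA of haematopoietic stem cells (HSCs), as the labels call them, from bone marrow of C57BL/6 mice aged 8 weeks, to compare WT with Hif1a-/- mice. The Hif1a gene codes for HIF-1 alpha, the subunit through which HIF-1 responds to oxygen. In both genotypes the sort took Lin- c-Kit+ Sca-1+ cells (LSK), and no treatment is named. The labels describe the arrays as biological replicates but name no Cre line or method of deletion, do not say whether animals were pooled, and give no reason for the number. A replicate number as such is no condition of the study. What the comparison shows is how far 2 arrays of cells from the same gate differed within each genotype.

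The LSK gate of mouse bone marrow holds the rare stem cells that can renew themselves, together with multipotent progenitors that no longer can. As progenitors mature they switch off regulators such as Hlf, Meis1 and Mecom, and take up the programmes of their lineage, among them the granule proteins of neutrophils and the antigen-presentation genes of dendritic cells.

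Signals are RMA values on a log2 scale, on which 1 unit is a 2-fold difference, and all differences are number 2 minus number 1. Signals of a gene are given below as the WT and then the Hif1a-/- array of number 1, against the WT and then the Hif1a-/- array of number 2. They are not comparable between genes, because probe sets differ in brightness. The test (limma, with genotype as a block, two-sided) called a gene when its p-value, adjusted by Benjamini-Hochberg over all 19938 genes, was under 0.05. It rests on 2 arrays a side, and the figure after ± is the standard error of a difference. Each gene has 1 residual degree of freedom, to which limma adds a prior of 4.2 degrees of freedom from all genes. The standard errors and p-values thus rest largely on spread shared across genes, and do not measure a gene's own replicate spread alone. They cover these arrays only, and an exact permutation test of 2 against 2 could not pass the 0.05 threshold for any single gene. Below, a gene that rose or fell is one called higher or lower in number 2. In RNA of a mixed sort, fewer cells of a type and less of its RNA per cell cannot be told apart.

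The array number accounted for most of the difference among the arrays. Of the variation of all genes over the 4 arrays, 71.5% lay between the numbers, 14.0% between the genotypes and 14.5% in their interaction. At least 2-fold differences between the numbers were found for 793 genes in WT arrays and 870 in Hif1a-/- arrays, while the genotypes differed as much for 32 genes within number 1 and 190 within number 2. Of the genes tested between the numbers 3585 had an unadjusted p under 0.05, and 1108 were called, 656 of them higher in number 2 (3.29% of genes tested) and 452 lower (2.27%). The median standard error of a difference was 0.136. Both arrays numbered 2 lay above both numbered 1 for 20.4% of genes and below them for 27.2%. Between the genotypes no gene was called by limma, with 145 at an unadjusted p under 0.05.

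How many genes passed depended strongly on which arrays were kept. A fit with 1 array left out cannot hold the genotype block, and takes the lone array of a number to vary as the pair does. It called 319 genes without WT array 1 and 458 without Hif1a-/- array 1, but 4661 without WT array 2 and 4602 without Hif1a-/- array 2. Centring each array on its median left 440 calls, 338 higher and 102 lower, so that the higher share was 76.8% in place of 59.2%. Without limma's sharing of variance across genes 0 genes were called (smallest adjusted p 0.196, with 1559 genes at an unadjusted p under 0.05), and over all 35556 probe sets, named or not, 0 were called (smallest adjusted p 0.0941, with 4093 at an unadjusted p under 0.05). Counts by fold alone, which need no test, were steadier across normalizations. They need all 4 arrays, and were not made with an array left out or over all probe sets. A difference of at least 2-fold the same way in both genotypes was seen for 367 genes higher in number 2 (1.84%) and 152 lower (0.762%), 519 in all, and for 512 to 522 under 3 other normalizations and with averaged probe sets. Of the 519, 85 higher and 9 lower were at least 4-fold apart in both genotypes. The split at 2-fold was 394 higher and 128 lower after median centring.

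The array labelled Hif1a-/- 2 stood apart in one further respect. Xist, the RNA that silences an X chromosome in female cells, read 6.94 and 6.82 against 7.76 and 11.23. The Y-linked genes were lowest in the same array, with Kdm5d at 9.40 and 9.46 against 8.98 and 8.69, Uty at 9.19 and 9.33 against 8.98 and 8.35 and Eif2s3y at 10.19 and 10.15 against 10.09 and 9.66. The Xist difference between the numbers, 2.61, had an adjusted p of 0.166, and 0 of the 4 sex-linked genes measured were called by limma (3 at an unadjusted p under 0.05). The part of this in the results below was not tested. Where array signals are printed below, the WT arrays stand beside the Hif1a-/- arrays. Other genes and several list medians are given only over both genotypes, so the share of this array in them is not visible.

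**Figure D1:**
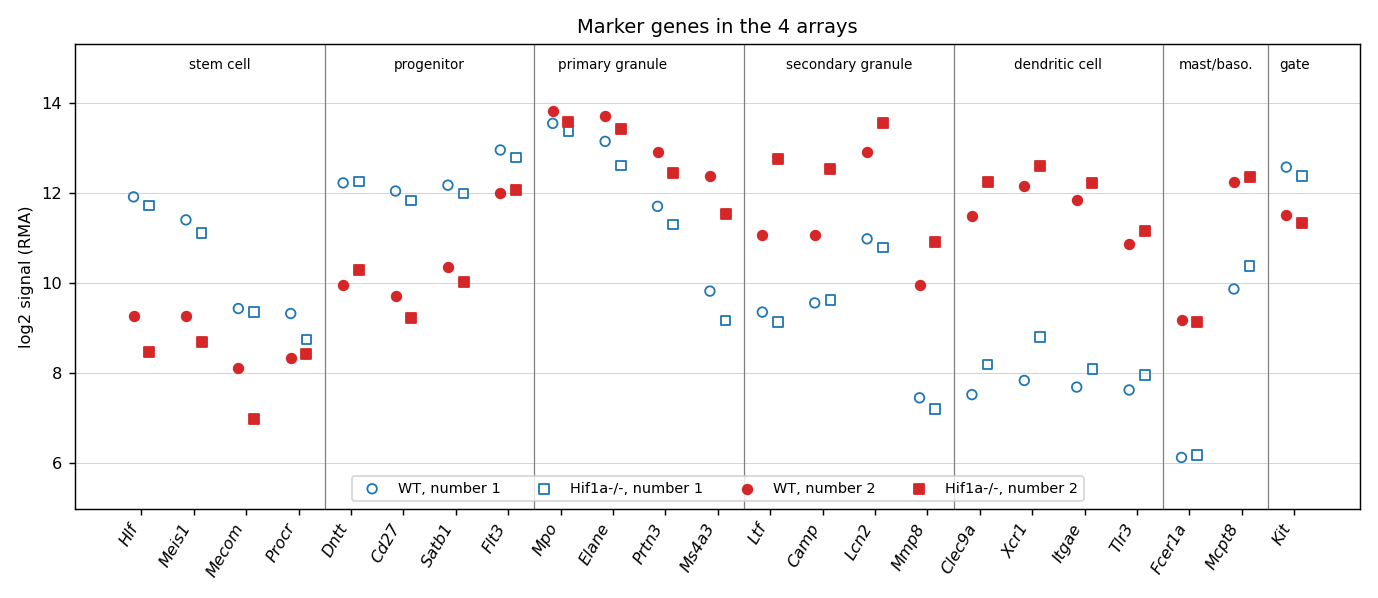
Log2 signal (vertical axis) of marker genes in each of the 4 arrays, with open symbols for number 1, filled symbols for number 2, circles for WT and squares for Hif1a-/-, and no error bars because every array is shown. Hlf, Meis1 and Dntt sit lower in both arrays numbered 2, while Clec9a, Xcr1 and the secondary granule genes sit higher, whichever the genotype.

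Promoters of 6 genes at which the lists below differed most are shown to put sequence beside these differences. In each of 6 lists the gene is the one whose smaller within-genotype difference was largest among those with an entry in the RefSeq promoter table (GRCm38.p6, 250 bases before to 50 after the gene's start, read along the gene). Capitals mark matches on either strand to GAGGAA (the core bound by PU.1, the master factor of myeloid cells), TTGCNNAA (C/EBP, the granulocyte factors), AGATAA (for the GATA factors), TGTGGT (RUNX), CACGTG (E-box) and TGACAG (MEIS). No match printed here overlaps another.
Hlf, chr11:90390868-90391167, minus strand: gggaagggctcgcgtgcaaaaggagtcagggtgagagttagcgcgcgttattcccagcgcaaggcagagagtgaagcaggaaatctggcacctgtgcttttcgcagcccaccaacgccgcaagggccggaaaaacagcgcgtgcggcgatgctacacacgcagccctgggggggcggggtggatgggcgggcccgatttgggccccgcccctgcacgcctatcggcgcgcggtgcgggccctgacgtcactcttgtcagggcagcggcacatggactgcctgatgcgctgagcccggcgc
Cd27, chr6:125236978-125237277, minus strand: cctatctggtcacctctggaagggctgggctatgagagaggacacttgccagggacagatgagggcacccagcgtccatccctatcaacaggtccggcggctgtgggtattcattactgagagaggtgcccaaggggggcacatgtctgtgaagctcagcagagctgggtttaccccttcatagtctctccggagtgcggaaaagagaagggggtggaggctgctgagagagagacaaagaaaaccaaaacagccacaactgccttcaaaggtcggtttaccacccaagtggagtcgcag
Ms4a3, chr19:11640802-11641101, minus strand: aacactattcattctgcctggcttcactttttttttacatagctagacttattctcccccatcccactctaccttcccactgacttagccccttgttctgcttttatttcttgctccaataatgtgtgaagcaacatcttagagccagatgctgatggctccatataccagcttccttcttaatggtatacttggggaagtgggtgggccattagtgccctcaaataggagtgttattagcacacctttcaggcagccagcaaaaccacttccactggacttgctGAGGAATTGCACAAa
Chil3, chr3:106167515-106167814, minus strand: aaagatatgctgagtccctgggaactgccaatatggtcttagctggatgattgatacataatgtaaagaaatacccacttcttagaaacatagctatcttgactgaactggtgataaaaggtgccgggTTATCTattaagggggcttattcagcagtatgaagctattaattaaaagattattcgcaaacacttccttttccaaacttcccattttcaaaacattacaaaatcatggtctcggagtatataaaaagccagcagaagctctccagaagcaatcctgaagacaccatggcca
Fcer1a, chr1:173227180-173227479, minus strand: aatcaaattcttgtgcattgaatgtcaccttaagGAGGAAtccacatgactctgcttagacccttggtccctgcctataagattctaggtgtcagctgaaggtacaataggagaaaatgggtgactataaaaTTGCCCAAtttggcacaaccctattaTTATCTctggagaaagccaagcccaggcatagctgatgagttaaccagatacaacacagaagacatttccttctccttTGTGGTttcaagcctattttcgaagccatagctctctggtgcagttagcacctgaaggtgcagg
Clec9a, chr6:129408612-129408911, plus strand: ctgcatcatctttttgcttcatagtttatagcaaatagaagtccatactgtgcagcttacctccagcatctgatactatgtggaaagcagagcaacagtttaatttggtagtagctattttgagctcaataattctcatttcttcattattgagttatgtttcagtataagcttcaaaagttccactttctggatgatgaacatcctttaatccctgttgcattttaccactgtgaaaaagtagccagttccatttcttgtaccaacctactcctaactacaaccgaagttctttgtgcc

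The stretches of Hlf, Cd27 and Clec9a hold none of the 6 motifs. In the IgE receptor gene Fcer1a, matches begin 216 bases before the start (PU.1), 118 before (C/EBP), 92 before (GATA) and 14 before (RUNX). Ms4a3 has a PU.1 match from base 36 after the start with a C/EBP match following directly at base 42, and Chil3 a GATA match 122 bases before its start. Among the 15614 measured genes with a promoter in the table, 27.0% held the PU.1 letters, 9.68% those of C/EBP and 9.55% those of GATA (28.3%, 10.8% and 11.4% of all 27025 promoters, taking the first listed per gene). The PU.1 letters occurred in 8 of 10 promoters of myeloid progenitor and primary granule genes (80.0%). They occurred in 13 of 21 secondary granule promoters (61.9%) and 1 of 10 promoters of cross-presenting dendritic cell genes (10.0%). C/EBP letters occurred in 38.1% of the secondary granule promoters and GATA letters in 7 of 15 mast cell and basophil promoters (46.7%). These letters were also frequent in lists with at most 1 higher call. The PU.1 letters occurred in 8 of 10 megakaryocyte promoters (80.0%), 5 of 7 plasma cell promoters (71.4%) and 8 of 15 B lineage promoters (53.3%), and C/EBP letters in 3 of 7 plasma cell promoters (42.9%). Among all genes called higher in number 2, 35.4% held the PU.1 letters, and 30.0% of those called lower. A match is a run of letters and does not show that a factor is bound.

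Genes of the stem cell programme were lower in the arrays numbered 2. Of 38 genes listed, 35 were measured. Of these, 14 were called lower and 1 higher, where 2.27% of all genes tested were called lower and 3.29% higher. The median difference was −0.52 against −0.02 for all genes, and both arrays numbered 2 lay below both numbered 1 for 25 of the 35 (27.2% of all genes). Hlf, a transcription factor that marks long-term stem cells and whose promoter is printed above, read 11.91 and 11.72 against 9.28 and 8.46. Both arrays numbered 2 were far below both of number 1, and Hlf fell by 2.95 ± 0.19 (adjusted p 0.00403), which is 7.71-fold. Meis1, the HOX cofactor needed for stem cell maintenance, read 11.40 and 11.11 against 9.26 and 8.68, without overlap, and fell by 2.28 ± 0.14 (adjusted p 0.00403). Mecom, a zinc-finger regulator of stem cell renewal, read 9.44 and 9.36 against 8.11 and 6.99 and fell by 1.84 ± 0.26 (adjusted p 0.0242). Its lowest value was in Hif1a-/- array 2. Angpt1, a ligand of the receptor Tie2 that stem cells make themselves, read 11.58 and 11.30 against 9.46 and 7.97 and again was lowest in Hif1a-/- array 2, a difference of −2.73 ± 0.30, adjusted p 0.0126. The homeobox genes Hoxa9 (difference −1.49 ± 0.20, adjusted p 0.0207) and Hoxa5 (−1.48 ± 0.13, adjusted p 0.00802) fell, as did the proto-oncogene Mycn (−1.65 ± 0.22, adjusted p 0.0213). The call was lost for Mecom, Hoxa9 and Mycn with either array numbered 1 left out, Angpt1 without WT array 1, and Mecom, Angpt1, Hoxa9 and Mycn after median centring (adjusted p 0.0508 to 0.116).

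Several surface and signalling members changed with them. The endothelial-type receptors Robo4 and Tie1 fell by 1.31 and 1.45, the imprinted gene Ndn by 1.14, the redox regulator Txnip by 0.96, the stem cell marker Pdzk1ip1 by 1.04, the calcium channel gene Trpc6 by 0.90 and the TGF-beta binding protein gene Ltbp3 by 1.5. Tek, which encodes Tie2 itself, had a difference of −0.70 and did not pass (adjusted p 0.0596). Procr, the EPCR antigen used to purify stem cells, read 9.32 and 8.74 against 8.33 and 8.43, with a difference of −0.65 that did not pass either (adjusted p 0.162). The WT arrays were further apart for it than the Hif1a-/- arrays. Some defining genes had small mean differences, such as Hoxb5 at −0.17 and Slamf1, the CD150 receptor, at 0.15. For Slamf1 the genotypes went opposite ways, with the Hif1a-/- difference minus the WT difference at −0.60. Sult1a1, a sulfotransferase gene, went the other way with 8.24 and 7.92 against 10.25 and 9.13 and rose by 1.61 ± 0.22 (adjusted p 0.0219). Socs2 and Pbx3 lay at 0.75 and 0.53 without passing. Lower calls numbered 5 without WT array 1 and 9 without Hif1a-/- array 1, against 23 and 18 without WT array 2 and Hif1a-/- array 2, and 6 after median centring. The adjusted p rose over 0.05 for Trpc6 and Sult1a1 with either array numbered 1 left out, Tie1, Txnip, Pdzk1ip1 and Ltbp3 without WT array 1, Ndn without Hif1a-/- array 1, and Ndn, Txnip, Pdzk1ip1, Trpc6 and Sult1a1 after median centring (adjusted p 0.0523 to 0.201).

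Multipotent and lymphoid-primed progenitor genes were lower as well. Of 17 measured, 7 fell and 1 rose, where 2.27% of all genes tested fell and 3.29% rose. The median was −0.60 (−0.67 in WT and −0.81 in Hif1a-/- arrays). Dntt, the terminal transferase that adds bases to antigen receptor joints and marks lymphoid priming, read 12.22 and 12.25 against 9.95 and 10.28. The arrays of one number were close together and the numbers far apart, at a difference of −2.12 ± 0.14, adjusted p 0.00456. Cd27, a TNF-family receptor of multipotent progenitors whose promoter is printed above, read 12.04 and 11.83 against 9.72 and 9.22 and fell by 2.46 ± 0.14 (adjusted p 0.00396). Satb1, a chromatin organiser of lymphoid genes, read 12.17 and 11.99 against 10.35 and 10.02 and fell by 1.89 ± 0.13 (adjusted p 0.00476). The receptor Notch1, needed for T cell fate, fell by 1.32, the transcription factor Mef2c by 1.35, the recombinase subunit Rag2 by 0.87 and Flt3, the cytokine receptor that defines this compartment, by 0.84. Cd34, the sialomucin of progenitors, read 13.33 and 13.30 against 12.46 and 10.92. Its drop was mostly in Hif1a-/- array 2, and the difference of −1.63 did not pass (adjusted p 0.0752). Rag1 followed the genotype and not the number, at 9.05 and 10.31 against 9.19 and 10.41. Lsp1, a leukocyte actin-binding protein gene, rose by 0.75 ± 0.13 (adjusted p 0.0404), and Cd48 had a difference of 0.34 without passing. Lower calls numbered 4 without WT array 1, 4 without Hif1a-/- array 1 and 4 after median centring, against 9 and 10 without the arrays WT 2 and Hif1a-/- 2. Calls were lost for Mef2c, Rag2, Flt3 and Lsp1 with either array numbered 1 left out or after median centring, and Rag2 without WT array 2 (adjusted p 0.075 to 0.751).

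Genes of myeloid progenitors and primary granules, a list that also holds transcription factors and receptors, were raised less evenly. Of 13 measured, 6 rose and 0 fell, where 3.29% of all genes tested rose and 2.27% fell. The median was 0.69. Mpo, the myeloperoxidase that defines granulocyte-monocyte progenitors, read 13.54 and 13.37 against 13.81 and 13.56, and its numbers differed by 0.23 ± 0.13, which did not pass (adjusted p 0.492). Elane, the neutrophil elastase, read 13.14 and 12.61 against 13.70 and 13.42 and did not pass (0.69, adjusted p 0.0625). Prtn3, proteinase 3, read 11.70 and 11.30 against 12.91 and 12.44 and rose by 1.18 ± 0.13 (adjusted p 0.0132). Ctsg, cathepsin G, rose by 0.87 ± 0.15 (adjusted p 0.0373). The largest difference was in Ms4a3, a membrane protein gene of granulocyte-monocyte progenitors, at 9.82 and 9.17 against 12.38 and 11.53, a rise of 2.46 ± 0.14 (adjusted p 0.00362). Fcgr3, an activating receptor for IgG, rose by 2.04 ± 0.13 (adjusted p 0.00413), the granulocyte factor Cebpe by 1.30 and Spi1, which encodes PU.1, by 0.70. Csf3r, the G-CSF receptor, had a difference of −0.73 without passing. Calls numbered 3 without WT array 1, 2 without Hif1a-/- array 1 and 4 after median centring. No call was made for Prtn3, Ctsg and Spi1 with either array numbered 1 left out, Cebpe without Hif1a-/- array 1, and Ctsg and Spi1 after median centring (adjusted p 0.0529 to 0.317).

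Secondary granule and mature neutrophil genes rose together, and more so between the Hif1a-/- arrays. Of 24 measured, 17 rose (3.29% of all genes tested) and 0 fell, and both arrays numbered 2 were above both numbered 1 for 23 (20.4% of all genes). The median difference was 1.92, made up of 1.30 between the WT arrays and 2.52 between the Hif1a-/- arrays. The Hif1a-/- difference was the larger for all 24. With 1 array of each number and genotype, this contrast between the genotypes was not tested. Ltf, lactoferrin, read 9.36 and 9.14 against 11.07 and 12.75 and rose by 2.66 ± 0.43 (adjusted p 0.0347). Camp, the cathelicidin, read 9.56 and 9.62 against 11.07 and 12.52 and rose by 2.21 ± 0.33 (adjusted p 0.0275). In both genes the arrays of number 1 were alike and Hif1a-/- array 2 stood highest. Ngp, neutrophilic granule protein, rose by 1.82 ± 0.27 (adjusted p 0.0267), and Lcn2, the iron-siderophore binding lipocalin, by 2.34 ± 0.22 (adjusted p 0.00971). Mmp8, the neutrophil collagenase, read 7.46 and 7.20 against 9.97 and 10.92 and rose by 3.11 ± 0.29 (adjusted p 0.0094). Chil3, a chitinase-like protein with near-identical relatives that an array may not separate, read 7.82 and 7.51 against 10.94 and 11.72 and rose by 3.66 ± 0.27 (adjusted p 0.00536). Hp, the haemoglobin scavenger haptoglobin, was equally high in both arrays numbered 2, with 8.89 and 8.65 against 11.33 and 11.33. The alarmins S100a8 and S100a9 rose by 2.36 and 2.31, Pglyrp1 by 2.08, the adhesion molecule Cd177 by 2.02 and the chemokine receptor Cxcr2 by 1.61. The threshold was missed by Ltf, Camp, Ngp, S100a9, Cd177 and Cxcr2 with either array numbered 1 left out or after median centring (adjusted p 0.0551 to 0.164).

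Late neutrophil genes did not all follow. Padi4, the enzyme that citrullinates histones in neutrophils, read 9.40 and 9.31 against 8.45 and 9.14, the single member with a lower mean in number 2 (−0.56, adjusted p 0.27). Retnlg at 2.32 and Mmp9 at 1.79 had large differences that did not pass (adjusted p 0.0576 and 0.0981), with most of the rise in Hif1a-/- array 2. Ly6g, the neutrophil antigen recognised by the Gr-1 antibody, read 8.04 and 7.80 against 9.81 and 11.21 and rose by 2.60 ± 0.38 (adjusted p 0.0261). Itgam, the Mac-1 chain recognised by another common lineage antibody, read 9.78 and 9.46 against 9.96 and 11.11 and was raised mainly in that array, with a difference of 0.91 that did not pass (adjusted p 0.261). The list had 7 calls without WT array 1, 7 without Hif1a-/- array 1 and 8 after median centring. The call was lost for Ly6g with either array numbered 1 left out or after median centring (adjusted p 0.058 to 0.0634).

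Receptors and oxidase subunits shared by phagocytes were higher in number 2 in both genotypes. Of 26 measured, 18 rose and 1 fell, where 3.29% of all genes tested rose and 2.27% fell. The median was 1.18 (1.35 in WT, 1.01 in Hif1a-/- arrays). Cybb, the catalytic subunit of the phagocyte oxidase, read 9.82 and 10.00 against 12.04 and 12.54 and rose by 2.38 ± 0.15 (adjusted p 0.00403). Its partner Cyba rose by 1.17 and the cytosolic subunit Ncf4 by 0.83. Tlr13, a sensor of bacterial ribosomal RNA, read 7.34 and 7.89 against 10.90 and 10.90 and rose by 3.28 ± 0.18 (adjusted p 0.00362). Tlr7, a sensor of single-stranded RNA, was the exception with 9.12 and 9.16 against 8.11 and 7.89 and fell by 1.14 ± 0.14 (adjusted p 0.017). The adaptors Tyrobp and Fcer1g rose by 1.09 and 1.05, the beta-2 integrin Itgb2 by 1.92, the inhibitory receptors Pirb and Pilra by 2.0 and 2.25, and Trem3 by 2.27. Tlr4, the endotoxin receptor, had a difference of 0.47 and did not pass. There were 8 higher calls without WT array 1 and 10 after median centring. The adjusted p rose over 0.05 for Ncf4, Tlr7 and Tyrobp with either array numbered 1 left out, Cyba and Fcer1g without WT array 1, and Ncf4, Tlr7, Tyrobp and Fcer1g after median centring (adjusted p 0.0517 to 0.195).

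Monocyte and macrophage genes showed a smaller and partial rise. Of 29 measured, 10 rose and 0 fell, where 3.29% of all genes tested rose and 2.27% fell. The median was 0.73. Ccr2, the receptor that brings monocytes out of the marrow, read 8.54 and 8.92 against 11.42 and 11.13 and rose by 2.55 ± 0.19 (adjusted p 0.00558). Adgre1, the macrophage antigen F4/80, read 7.24 and 7.81 against 9.50 and 9.37 and rose by 1.91 ± 0.20 (adjusted p 0.0117). Csf1r, the receptor for macrophage colony-stimulating factor, read 9.85 and 9.87 against 10.63 and 10.16 and did not pass (0.53, adjusted p 0.176). Cd68, a lysosomal glycoprotein of macrophages, rose by 1.1 ± 0.13 (adjusted p 0.0164), the endotoxin co-receptor Cd14 by 0.81 ± 0.13 (adjusted p 0.0355), the mannose receptor Mrc1 by 1.51, cathepsin S (Ctss) by 1.89, and the iron-handling genes Hmox1 and Slc40a1 by 1.45 and 1.61. Apoe lay at −0.29 without passing. Of the 20 lysosomal genes measured, 11 rose and 0 fell (median 0.84). Both arrays numbered 2 were above both numbered 1 for all 20 (20.4% of all genes). Ctsh, a cathepsin, rose by 1.81 ± 0.15 (adjusted p 0.00685), and Psap, the saposin precursor, by 1.21 ± 0.15 (adjusted p 0.0165). Among other cathepsins, Ctsb rose by 0.94 and Ctsc by 1.42, while Ctsd lay at 0.27 and the membrane protein genes Lamp1 and Cd63 at 0.41 and 0.30 without passing. Monocyte calls numbered 4 without WT array 1 and 5 without Hif1a-/- array 1. Lysosomal calls numbered 2 and 3 without these arrays, and 3 after median centring. Calls were lost for Cd14, Slc40a1, Psap and Ctsb with either array numbered 1 left out, Mrc1 and Hmox1 without WT array 1, Cd68 without Hif1a-/- array 1, and Cd14 and Ctsb after median centring (adjusted p 0.0556 to 0.206).

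Among the lists the largest differences were in the genes of cross-presenting dendritic cells. This type takes up dead cells and presents their antigens on MHC class I. As in the other lists, the members were chosen with earlier results of these data known, so rank and counts only describe. All 12 listed genes were measured, 11 rose and 0 fell, where 3.29% of all genes tested rose and 2.27% fell. Both arrays numbered 2 were above both numbered 1 for 12 of 12 (20.4% of all genes). The median was 3.05, with 3.20 in WT and 2.93 in Hif1a-/- arrays. Clec9a, the receptor for exposed actin of dead cells, read 7.53 and 8.20 against 11.48 and 12.23 and rose by 3.99 ± 0.13 (adjusted p 0.00286), which is 15.9-fold. Xcr1, the chemokine receptor unique to this type among dendritic cells, read 7.84 and 8.81 against 12.15 and 12.59 and rose by 4.05 ± 0.17 (adjusted p 0.00313). Itgae, the CD103 integrin chain, read 7.69 and 8.10 against 11.83 and 12.21 and rose by 4.12 ± 0.13 (adjusted p 0.00286). Within each number the Hif1a-/- array was the higher for all 3 genes, by less than 1 unit. Tlr3, a sensor of double-stranded RNA, read 7.63 and 7.97 against 10.87 and 11.15 and rose by 3.21 ± 0.13 (adjusted p 0.00313). Naaa, a lysosomal amidase gene, rose by 3.58 ± 0.17 (adjusted p 0.00313). Ifi205, of the interferon-inducible p200 family, whose members are alike and may share signal, rose by 3.87 ± 0.18 (adjusted p 0.00313). The surface adhesion gene Cadm1 read 8.16 and 8.44 against 10.46 and 11.12 and rose by 2.49 ± 0.15 (adjusted p 0.00403).

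Transcription factors of this lineage rose too. Irf8 read 10.91 and 11.04 against 12.38 and 12.89 and rose by 1.66 ± 0.15 (adjusted p 0.00889). Id2 read 9.47 and 10.18 against 12.63 and 12.81 and rose by 2.89 ± 0.17 (adjusted p 0.00403). Batf3, on which the lineage depends, read 8.78 and 8.78 against 9.60 and 9.94 and rose by 0.99 ± 0.15 (adjusted p 0.0267). Zbtb46, a factor of classical dendritic cells, rose by 1.11 ± 0.14 (adjusted p 0.0192). Wdfy4, needed for cross-presentation, read 11.51 and 11.52 against 12.23 and 13.10, and its difference of 1.15 did not pass (adjusted p 0.0599). Calls numbered 9 without WT array 1, 9 without Hif1a-/- array 1 and 10 after median centring. No call was made for Batf3 and Zbtb46 with either array numbered 1 left out, and Batf3 after median centring (adjusted p 0.0544 to 0.126).

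MHC class II genes were higher as well, with 62.5% of those measured called higher, where 3.29% of all genes tested were. Of 8 measured, 5 rose and 0 fell (median 2.18), and the count was 5 without WT array 1, without Hif1a-/- array 1 and after median centring. Cd74, the invariant chain, read 11.63 and 11.87 against 13.69 and 14.02 and rose by 2.10 ± 0.13 (adjusted p 0.00403). Ciita, the coactivator that switches the class II genes on, read 8.62 and 8.65 against 10.84 and 11.61 and rose by 2.59 ± 0.21 (adjusted p 0.00623). The chains H2-Aa, H2-Ab1 and H2-Eb1 rose by 2.54, 2.26 and 2.59. H2-Ob, which encodes a chain of the B cell modulator of peptide loading, read 11.64 and 11.55 against 10.94 and 11.34 and lay at −0.45 without passing (adjusted p 0.247). Among 19 genes of other dendritic cells, 8 rose (42.1%) and 1 fell (5.26%, where 2.27% of all genes tested fell). Itgax, the CD11c chain common to dendritic cells, read 8.54 and 8.74 against 10.44 and 11.13 and rose by 2.15 ± 0.17 (adjusted p 0.00594). The activation marker Cd83 read 7.48 and 7.47 against 9.41 and 9.67 and rose by 2.07 ± 0.14 (adjusted p 0.00456). The plasmacytoid marker Siglech was level at 8.61 and 8.43 against 8.64 and 8.78, and Tcf4, the factor of that type, fell by 0.95 ± 0.14 (adjusted p 0.0258). Cd209a, a monocyte-derived dendritic cell marker, was level too (0.11), the lectin gene Clec10a lay at 0.53 without passing, and Sirpa, which marks the other classical type, had a difference of 0.48 without passing. Higher calls in this list numbered 2 without WT array 1 and 4 without Hif1a-/- array 1. The threshold was missed by Tcf4 with either array numbered 1 left out or after median centring (adjusted p 0.0928 to 0.128).

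**Figure D2:**
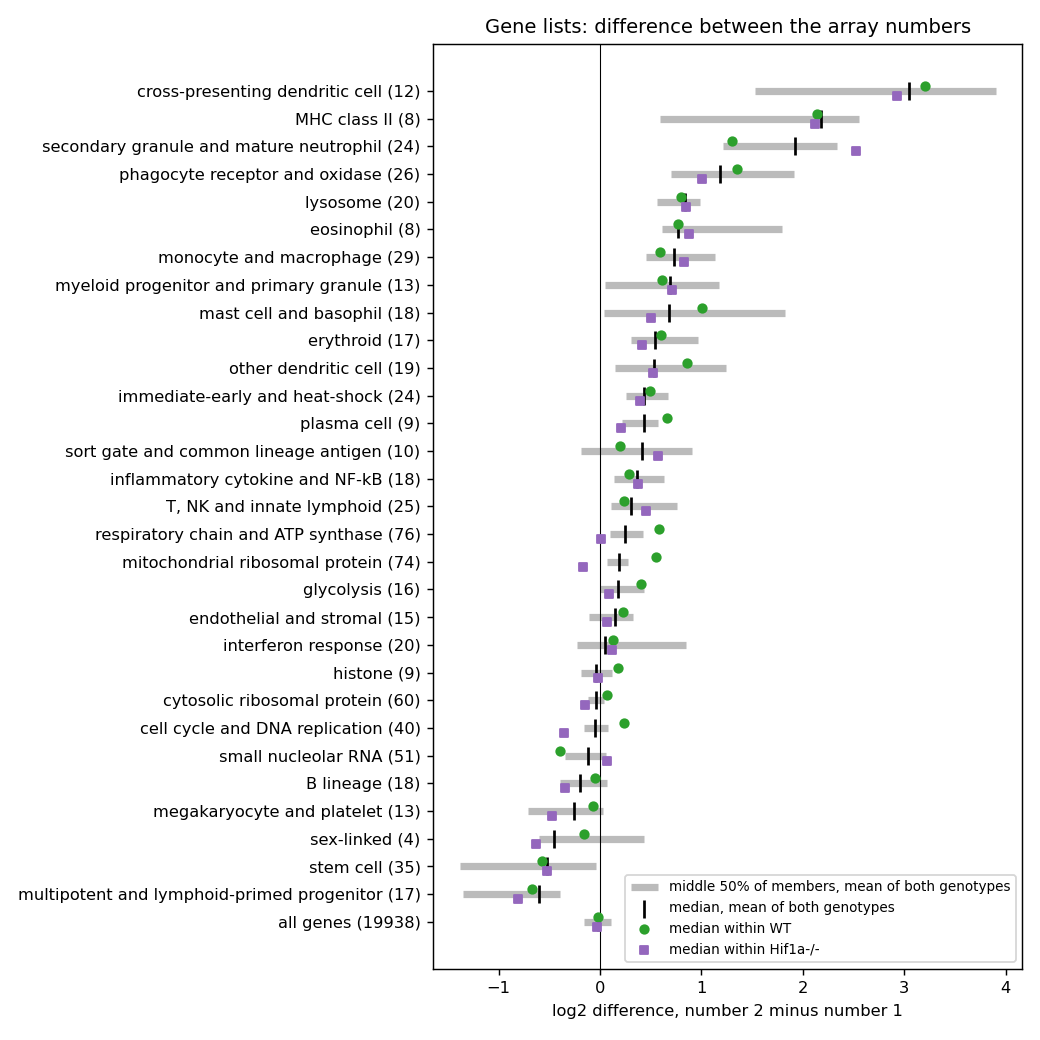
Median log2 difference, number 2 minus number 1 (horizontal axis), of each gene list with its number of measured genes, where the grey bar spans the middle 50% of members, the tick is the median over both genotypes, the circle the median within WT and the square that within Hif1a-/-. Cross-presenting dendritic cell genes lie highest at 3.05 and progenitor genes lowest at −0.60, while all genes lie at −0.02.

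Part of the mast cell and basophil list was higher in number 2. Of its 18 measured genes, 8 rose and 0 fell, where 3.29% of all genes tested rose. Fcer1a, the alpha chain of the IgE receptor, whose promoter is printed above, read 6.13 and 6.19 against 9.18 and 9.14 and rose by 3.0 ± 0.13 (adjusted p 0.00313), with the arrays of each number nearly equal. Mcpt8, a basophil protease, read 9.87 and 10.38 against 12.23 and 12.36 and rose by 2.17 ± 0.15 (adjusted p 0.00482). Cpa3, a carboxypeptidase of both types, rose by 1.24 ± 0.18 (adjusted p 0.0244), Ms4a2, the IgE receptor beta chain, by 1.93, the basophil protease Prss34 by 1.84, Hdc, which makes histamine, by 1.77, and the receptor gene Cd200r3 by 1.42. Gzmb, listed here but better known from cytotoxic lymphocytes, rose by 2.89. The tissue mast cell proteases Mcpt4, Tpsb2 and Cma1 lay at 0.65, 0.68 and 0.67 without passing, and Il4, a cytokine of basophils and mast cells, at −0.06. Mast cell proteases belong to families of similar sequence, which an array may not fully separate. Of 8 eosinophil genes, 5 rose and 0 fell, among them the granule proteins Prg2 (1.64 ± 0.17, adjusted p 0.011), Prg3 (0.76 ± 0.13, adjusted p 0.0389) and Epx (2.25 ± 0.17, adjusted p 0.00554) and the ribonuclease gene Ear6 (2.25 ± 0.23, adjusted p 0.0108), which has relatives of similar sequence. Il5ra, the interleukin 5 receptor chain, was at 7.03 and 7.01 against 7.47 and 7.03 and did not pass. Basophil and mast cell calls numbered 5 without WT array 1, and eosinophil calls 3 with either array numbered 1 left out. The call was lost for Prg3 with either array numbered 1 left out, Cpa3, Prss34 and Cd200r3 without WT array 1, and Cpa3, Cd200r3 and Prg3 after median centring (adjusted p 0.0607 to 0.227).

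Erythroid genes were called on the higher side only, megakaryocyte genes on both. Of 17 erythroid genes, 5 rose and 0 fell, where 3.29% of all genes tested rose and 2.27% fell. The erythroid median was 0.54. Rhag, a membrane channel of red cells, read 6.50 and 6.91 against 9.59 and 8.95 and rose by 2.56 ± 0.26 (adjusted p 0.0114). Ermap, a surface protein of erythroid cells, rose by 1.40 ± 0.14 (adjusted p 0.011). The erythroid regulators did not pass, with Gata1 at 8.95 and 8.75 against 9.56 and 9.02 and Klf1 at 8.65 and 8.65 against 9.12 and 8.80. Car2, a carbonic anhydrase gene, was lower at 12.42 and 12.40 against 11.79 and 11.31 without passing (−0.86, adjusted p 0.0511), whereas Car1 lay at 1.12 (adjusted p 0.122). The erythropoietin and transferrin receptor genes Epor and Tfrc lay at 0.55 and 0.50 without passing. Of 13 megakaryocyte genes, 2 fell (15.4%) and 1 rose (7.69%). Mmrn1, multimerin, which is also expressed in stem cells and endothelium, read 10.19 and 9.53 against 7.61 and 7.69 and fell by 2.21 ± 0.21 (adjusted p 0.00936). Nfe2, the factor of platelet formation, fell by 0.78 ± 0.15 (adjusted p 0.0497). F2rl2, a thrombin receptor gene, rose by 1.13 ± 0.13 (adjusted p 0.0146). Itga2b, the CD41 integrin chain, read 10.54 and 10.15 against 9.96 and 9.67 and did not pass, nor did the platelet genes Pf4 (−0.71), Gp9 (−0.90) and Itgb3 (0.13). Erythroid calls numbered 1 without WT array 1, 2 without Hif1a-/- array 1 and 2 after centring. The adjusted p rose over 0.05 for Nfe2 with either array numbered 1 left out or after median centring, and Ermap and F2rl2 without WT array 1 (adjusted p 0.0523 to 0.439).

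B lineage genes were called on both sides. Of 18 measured, 1 rose (5.56%) and 2 fell (11.1%), where 3.29% of all genes tested rose and 2.27% fell. The median was −0.20. Pax5, the factor that commits cells to this lineage, read 9.35 and 10.35 against 8.95 and 9.94, so that in each number the Hif1a-/- array was about 1 unit above the WT array. Cd79a, a chain of the B cell receptor complex, showed the same order at 10.46 and 11.73 against 10.41 and 11.26, as did Ebf1 at 10.02 and 11.73 against 9.76 and 10.86. Cd79b, the other chain of that complex, did not show it, at 10.80 and 11.71 against 11.0 and 10.83. The differences of these 4 genes between the numbers, −0.41, −0.27, −0.57 and −0.34, did not pass. Cd72, a B cell inhibitory receptor also found on progenitors, read 11.25 and 11.23 against 9.87 and 9.76 and fell by 1.43 ± 0.13 (adjusted p 0.00876). Ralgps2, an exchange factor gene, fell by 0.75 ± 0.13 (adjusted p 0.0411), and Fcrla, an Fc receptor-like gene, rose by 1.19 ± 0.18 (adjusted p 0.0289). Of 9 plasma cell genes 0 were called by limma, with 6 at an unadjusted p under 0.05. Calls were lost for Ralgps2 and Fcrla with either array numbered 1 left out or after median centring (adjusted p 0.0912 to 0.229). Jchain, the joining chain, was lower in the Hif1a-/- array of each number, at 11.90 and 10.35 against 12.22 and 10.88, as was Ighm, the heavy chain of IgM, at 11.50 and 9.99 against 11.53 and 10.21. The plasma cell genes Mzb1 and Sdc1 lay at 0.35 and −0.71 without passing.

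Of 25 lymphoid effector genes measured, 4 rose, each known from natural killer cells among other types, and 1 fell. Over all genes tested, 3.29% rose and 2.27% fell. Ncr1, the natural killer receptor NKp46, read 6.69 and 6.75 against 7.99 and 9.26 and rose by 1.91 ± 0.30 (adjusted p 0.03). Klrk1, the activating receptor NKG2D, read 6.70 and 6.99 against 9.11 and 9.44 and rose by 2.43 ± 0.13 (adjusted p 0.00362). Il2rb, the interleukin 2 and 15 receptor chain, read 7.41 and 7.40 against 8.85 and 10.25 and rose by 2.14 ± 0.33 (adjusted p 0.03), and Klrd1 rose by 1.23. For Ncr1 and Il2rb the highest signal was in Hif1a-/- array 2. Other natural killer genes of the list, Klrb1c, Gzma, Prf1, Eomes, Tbx21, Nkg7 and Klre1, were measured and not called. Cd3e read 8.42 and 8.55 against 8.65 and 8.88 and Cd3d, another chain of the same complex, 6.77 and 6.86 against 6.79 and 7.06, with differences of 0.28 and 0.11 that did not pass, and Gata3, a factor of T and innate lymphoid cells, lay at 0.11. Lat, an adaptor of T cells, platelets and mast cells, fell by 0.93 ± 0.14 (adjusted p 0.0261). Calls on the higher side numbered 1 without WT array 1, 1 without Hif1a-/- array 1 and 1 after centring. No call was made for Ncr1, Il2rb, Klrd1 and Lat with either array numbered 1 left out or after median centring (adjusted p 0.0544 to 0.391).

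Of 10 measured genes of gate and common lineage antigens, 2 rose and 1 fell. These are RNA signals of sorted cells, and do not measure the surface proteins of the gate. Kit, the receptor used for sorting, read 12.57 and 12.37 against 11.51 and 11.32 and fell by 1.06 ± 0.13 (adjusted p 0.0165), a 2.09-fold drop that was alike in both genotypes. Ly6a, which encodes Sca-1, is not analysed here. Of the lineage antigens, Ly6g is described above, Cd8a read 7.98 and 8.22 against 8.94 and 9.05 and rose by 0.90 ± 0.13 (adjusted p 0.0259), and Cd4 and Cd5 lay at −0.30 and 0.12 without passing. Ptprc, the pan-leukocyte antigen CD45, read 11.55 and 11.54 against 11.83 and 12.36 and did not pass. A form of Cd8a is also carried by dendritic cells of the cross-presenting type. Of 15 endothelial and stromal genes, 2 rose and 2 fell (13.3% each), where 3.29% of all genes tested rose and 2.27% fell. Emcn, endomucin, which stem cells share with endothelium, read 10.44 and 10.16 against 8.04 and 6.95 and fell by 2.81 ± 0.22 (adjusted p 0.0059). Pdgfrb, a growth factor receptor gene, read 11.03 and 10.56 against 9.26 and 8.52 and fell by 1.90 ± 0.14 (adjusted p 0.00536). Cdh5, the endothelial cadherin, rose by 0.71 ± 0.13 (adjusted p 0.0469) and Sparc, a matrix protein gene, by 0.73 ± 0.13 (adjusted p 0.0441), but the stromal genes Col1a1 (0.05), Cxcl12 (0.18) and Lepr (0.17) did not pass. The threshold was missed by Ly6g, Cd8a, Cdh5 and Sparc with either array numbered 1 left out, Kit and Pdgfrb without WT array 1, and Kit, Ly6g, Cd8a, Cdh5 and Sparc after median centring (adjusted p 0.0546 to 0.259).

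The genes that differed most in both genotypes included several outside the lists. The rule took up to 15 called genes a direction, with a signal over the median of all genes in the higher number, by the smaller of the within-genotype differences. On the higher side were, besides members of the lists, Dnase1l3, a secreted nuclease of dendritic cells and macrophages, at 6.88 and 7.09 against 11.18 and 11.18 and a rise of 4.19 ± 0.14 (adjusted p 0.00286). The orphan receptor gene Gpr141b rose by 4.02 ± 0.19 (adjusted p 0.00313). Anpep, the myeloid antigen CD13, rose by 3.49 ± 0.13 (adjusted p 0.00313), and Cd36, a scavenger receptor, by 3.48 ± 0.16 (adjusted p 0.00313). Septin3, Shtn1 and Gm6377 rose by 3.42, 3.55 and 3.40. Bcl2a1c, one of several near-identical survival genes that the array may not separate, rose by 3.19. On the lower side, Stxbp4 read 10.48 and 10.39 against 7.83 and 6.88 and fell by 3.08 ± 0.23 (adjusted p 0.00536). Gcnt2, which builds branched sugar chains, read 11.80 and 11.63 against 9.44 and 8.83 and fell by 2.58 ± 0.16 (adjusted p 0.00403). Tet1, which oxidises methylated cytosine, read 11.64 and 11.39 against 9.52 and 9.38 and fell by 2.07 ± 0.13 (adjusted p 0.00403). The cytoskeletal gene Tns1 fell by 2.04, the guidance ligand Sema3d by 1.98, Cyp2j9 by 2.03, Arhgap32 by 2.04 and the predicted gene Gm4759 by 2.27.

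Between 20.8% and 25% of the genes of 3 signalling lists rose, where 3.29% of all genes tested did so. Of 20 interferon response genes, 5 rose and 0 fell. Called or not, 10 had a higher and 10 a lower mean in number 2, with a median difference of 0.05. Mx1, an antiviral GTPase, read 7.59 and 8.48 against 9.43 and 9.97 and rose by 1.67 ± 0.15 (adjusted p 0.00869), while Ifit1 was at 8.85 and 9.34 against 8.55 and 8.85 without passing. Ifit2, Ifit3 and the nucleic acid sensor Zbp1 rose by 0.78, 1.07 and 1.13. In these 5 genes the Hif1a-/- array of each number was the higher. Of 18 inflammatory genes 4 rose and 0 fell, namely the chemokine Ccl5 (1.53 ± 0.20, adjusted p 0.0191), Il1b (0.89 ± 0.14, adjusted p 0.0315), Il6 (1.12 ± 0.15, adjusted p 0.021) and Nlrp3 (1.30 ± 0.15, adjusted p 0.0152), whereas Tnf lay at 0.13, Ccl3 at −0.56 and Ccl4 at −0.20 without passing. Of 24 immediate-early and heat-shock genes, which respond within minutes to handling among other stimuli, 5 rose and 0 fell. Fos read 8.32 and 8.71 against 9.62 and 9.53 and rose by 1.05 ± 0.17 (adjusted p 0.0311), Klf6, a zinc-finger factor, rose by 1.24 ± 0.14 (adjusted p 0.015), Hspa1a rose by 0.76 ± 0.13 (adjusted p 0.0401), and Jun (0.27) and Egr1 (0.38) did not pass. With WT array 1 left out, 0 genes of each of these lists were called by limma (6, 6 and 10 at an unadjusted p under 0.05), and with Hif1a-/- array 1 left out the counts were 4, 1 and 1. The call was lost for Ifit2, Ccl5, Il1b, Il6, Klf6 and Hspa1a with either array numbered 1 left out, Mx1, Ifit3, Zbp1, Nlrp3 and Fos without WT array 1, Ifit3 without Hif1a-/- array 2, and Ifit2, Ifit3, Zbp1, Il1b, Il6, Fos and Hspa1a after median centring (adjusted p 0.052 to 0.71). The part of such responses in the differences above was not tested.

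**Figure D3:**
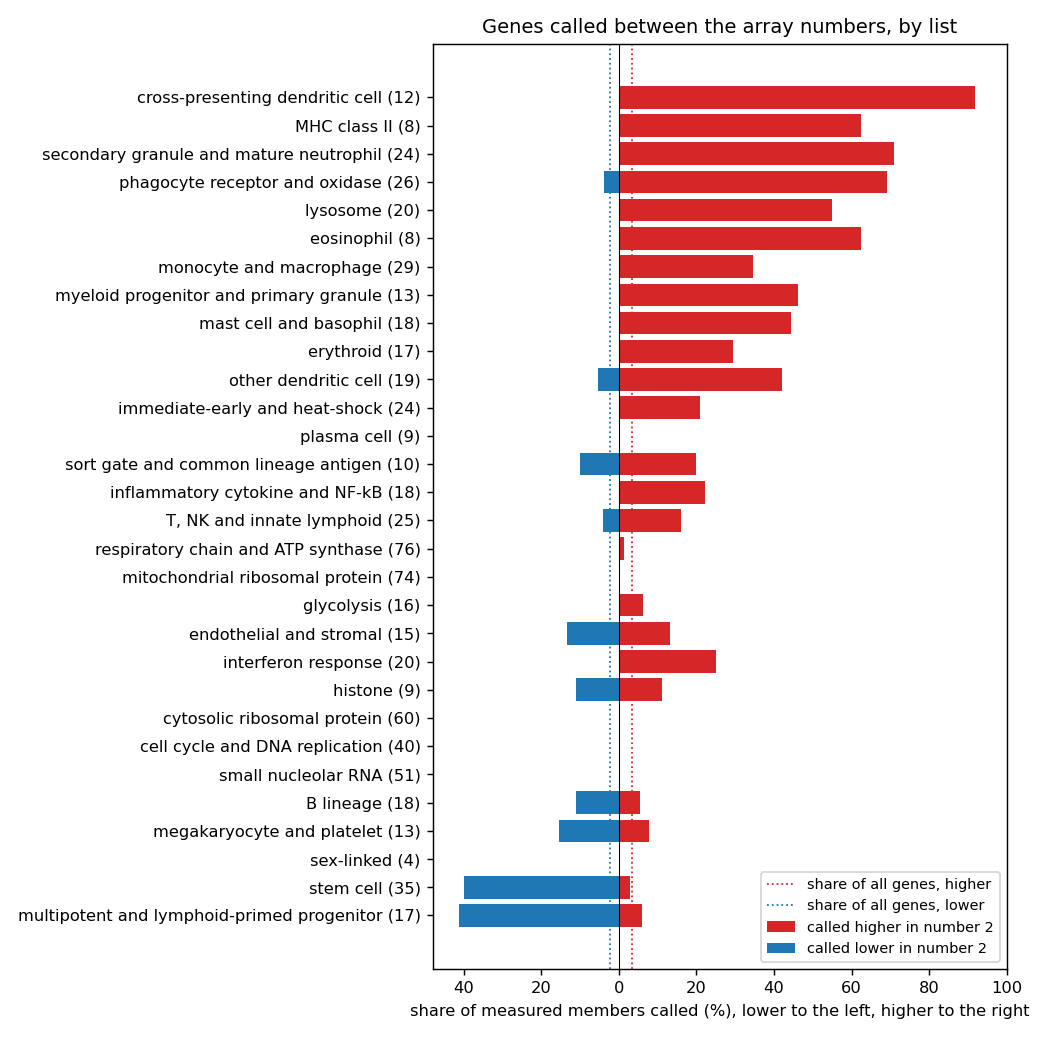
Share of measured members called lower (to the left) and higher (to the right) in number 2, in percent, for each gene list, with dotted lines at the shares over all genes, 2.27% and 3.29%. The bars of cross-presenting dendritic cell, secondary granule and phagocyte receptor genes reach furthest to the right, and those of stem cell and progenitor genes furthest to the left.

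Housekeeping lists had hardly any calls, yet several lay in opposite directions in the genotypes. Over all genes tested, 3.29% rose and 2.27% fell. Of 40 cell cycle genes 0 were called by limma, and the median was 0.24 between WT arrays and −0.35 between Hif1a-/- arrays, with the WT difference larger for all 40 and 2 at an unadjusted p under 0.05. These contrasts between the genotypes rest on 1 array each and were not tested. Pcna, the sliding clamp of DNA replication, read 12.81 and 13.06 against 12.95 and 12.78. Mki67, the proliferation antigen, read 12.43 and 12.65 against 12.27 and 12.49 and differed little. Of 74 mitochondrial ribosomal protein genes 0 were called (5 at an unadjusted p under 0.05), with medians of 0.55 and −0.17, and Mrpl20 had the largest difference over both genotypes (0.71, adjusted p 0.148). Of 76 respiratory chain and ATP synthase genes 1 rose, Atp5l (0.82 ± 0.14, adjusted p 0.0358), and the medians were 0.58 and 0.01. Cytosolic ribosomal protein genes were level, with a median of −0.04 and 0 of 60 called (1 at an unadjusted p under 0.05). The 9 histone genes, all but H3f3a of the linker histone H1 family, had the same median, with 1 that rose and 1 that fell. Small nucleolar RNAs lay at −0.39 in WT and 0.07 in Hif1a-/- arrays, with 0 of 51 called (7 at an unadjusted p under 0.05). Of 16 glycolysis genes, 1 rose, Pfkp, a phosphofructokinase gene, at 9.33 and 9.53 against 11.17 and 11.25 and a rise of 1.78 ± 0.13 (adjusted p 0.00528). Ldha and Pgk1, which make lactate and ATP in that pathway, lay at 0.37 and 0.42 without passing. The adjusted p rose over 0.05 for Atp5l with either array numbered 1 left out or after median centring (adjusted p 0.0686 to 0.157).

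**Figure D4:**
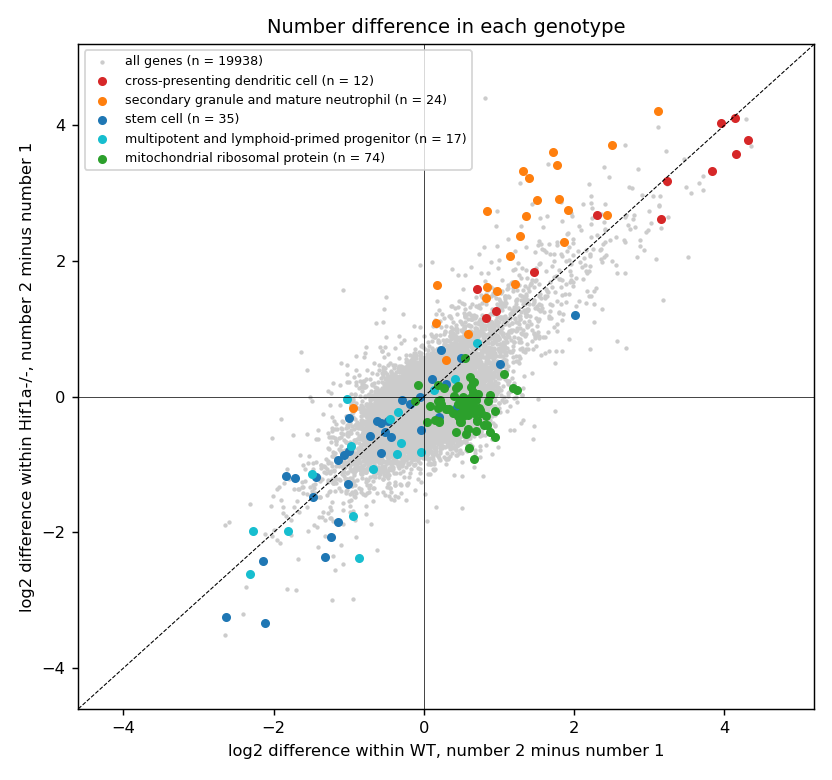
Log2 difference of every gene between numbers 2 and 1 within WT (horizontal axis) and within Hif1a-/- (vertical axis), with 5 lists coloured and a dashed line where both are equal. Dendritic cell genes lie along the line at upper right, secondary granule genes above it, stem cell and progenitor genes along it at lower left, and mitochondrial ribosomal protein genes to the right of zero but near or under zero on the vertical axis.

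Across 19938 genes the difference in WT and that in Hif1a-/- arrays went the same way for 59.3%. Pearson's r was 0.669 and Spearman's rho 0.368, computed across genes, which are not independent replicates. The 2 differences share no array. Among the genes at least 2-fold apart in both genotypes, 519 went the same way and 1 the opposite way, which was Mid1, an X-linked ubiquitin ligase gene, at 11.05 and 8.94 against 9.98 and 10.52.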

How the data were processed

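RNA of sorted LSK cells was measured on 4 Affymetrix whole-transcript arrays. The authors deposited log2 signals. Per the submitters' processing notes these came from RMA, run in Affymetrix Expression Console 1.1. RMA is meant to bring the arrays to one distribution, which would remove a change shared by all genes. The deposited values did not fully share one. Medians over probe sets were 8.31 and 8.32 in the WT and Hif1a-/- arrays of number 1, and 8.19 and 8.35 in those of number 2. Interquartile ranges (upper minus lower quartile) were 2.61 and 2.6 against 2.78 and 2.49. The part of this spread in the contrasts between the genotypes was not tested. The log base follows from the values, which lie between 3.08 and 14.88. No build was needed for the arrays, and the sources used here do not give one.

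Of 35556 probe sets, 21789 carried exactly 1 gene symbol, 1621 carried several and 12146 had no entry in the platform annotation. The probe set with the highest mean was kept per gene, which left 19938 genes, and no filter on dim signals was applied. The number of arrays limits the precision.

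Number 2 was compared with number 1 by limma 3.58.1 under R 4.3.3 (functions lmFit and eBayes, genotype as block, 1 residual degree of freedom before moderation, Benjamini-Hochberg over all genes, threshold 0.05). The fit was run on simulated data of independent genes drawn from its own variance model. Without array-wide effects, such data cannot show how the calls depend on single arrays. Lists are described by counts and medians without a test.

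The members and lists were chosen with earlier results of these data known. The naming rule picked Clec9a, Xcr1, Hlf, Meis1 and Dntt, up to 15 called genes a direction, the first 4 measured genes of each list and up to 2 per list and direction with the largest difference in both genotypes. Some of these, mostly of housekeeping lists, are given only in counts and medians. Further list members and Mid1 were named after their values were seen. Alternatives were other normalizations, averaged probe sets, all probe sets, no genotype block, leaving out the dimmest 40% of genes, other variance settings, a minimum fold of 1.2, other fold limits and each array left out.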

Additional observations from a re-analysis of the deposited data

Results flagged for a closer look

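Several gene lists moved in opposite directions between the numbers in the genotypes, by their medians. The difference in Hif1a-/- arrays minus that in WT arrays was −0.59 for cell cycle genes, −0.72 for mitochondrial ribosomal protein genes, −0.22 for cytosolic ribosomal protein genes, −0.20 for histone genes and 0.46 for small nucleolar RNAs. The same comparison gave −0.42 for Pcna, −0.60 for Slamf1, −0.78 for Jun, 0.26 for Col1a1, −1.07 for Cd79b, −0.74 for Mzb1, −1.45 for Pf4 and 2.65 for Mid1. Each rests on 1 array of each number and genotype, and the difference was not tested.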

How the results depend on the processing

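Against 1108 calls between the numbers, quantile normalization gave 1777, median centring 440, a test against a minimum fold of 1.2 gave 613, no moderation 0 and all probe sets 0. With 1 array left out the count ran from 319 (WT array 1) to 4661 (WT array 2). Against 519 genes at least 2-fold apart in both genotypes, 1296 were at least 1.5-fold and 94 at least 4-fold apart. The stem cell median of −0.52 was −0.48 after median centring, −0.57 within WT and −0.68 to −0.44 with an array left out. The progenitor median of −0.60 was −0.81 within Hif1a-/- and −0.86 to −0.52 with an array left out, and the cross-presenting dendritic cell median of 3.05 was 2.79 to 3.32.

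Some small list medians changed sign. With an array left out, the median of B lineage genes ran from −0.49 to 0.18, of cell cycle genes from −0.22 to 0.13, of interferon genes from −0.13 to 0.29, of cytosolic ribosomal genes from −0.15 to 0.06, of mitochondrial ribosomal genes from −0.10 to 0.47 and of histone genes from −0.07 to 0.13. Within WT the cell cycle, cytosolic ribosomal and histone medians were 0.24, 0.07 and 0.18, and within Hif1a-/- the mitochondrial ribosomal and small nucleolar RNA medians were −0.17 and 0.07. Median centring gave 0.01 for cytosolic ribosomal genes, and quantile normalization and cyclic loess 0.01 and 0.02 for histone genes. Among genes that were not called, differences with an array left out ran for Cd3d from −0.02 to 0.24, Cd79a from −0.90 to 0.37, Cd79b from −0.79 to 0.11, Col1a1 from −0.09 to 0.19, Ebf1 from −1.43 to 0.29, Gata3 from −0.05 to 0.28, Ighm from −0.63 to 0.87, Itgb3 from −0.04 to 0.30, Jchain from −0.35 to 1.2, Jun from −0.09 to 0.63, Mzb1 from −0.01 to 0.71, Pax5 from −0.90 to 0.09, Pcna from −0.19 to 0.06, Rag1 from −0.51 to 0.75 and Slamf1 from −0.01 to 0.31.

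Of 144 called genes named here, 52 lost the call after median centring, 68 without WT array 1, 50 without Hif1a-/- array 1, 1 without WT array 2 and 1 without Hif1a-/- array 2, and no called gene changed direction. The cause of these changes was not tested. The genotype contrast called 0 genes with limma (smallest adjusted p 0.9998, 145 genes at an unadjusted p under 0.05) and with the array number as a replicate block also 0 (smallest adjusted p 0.536, 478 genes at an unadjusted p under 0.05).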
